A study of Homo sapiens with 15 samples.

Results

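NRF2 pathway and antioxidant genes were followed through the transcriptomes of triple negative breast cancer cell lines. The genes were chosen by name, as the entries of the deposited expression table with the symbols NFE2L2, KEAP1, NQO1, HMOX1, GCLC, GCLM, TXNRD1, SLC7A11, SRXN1 and GPX2. All 10 symbols were found among the 33158 genes of the table.

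The series holds 15 RNA libraries from 3 established cell lines, which form 5 groups of 3. SUM149PT and HCC1937 were sorted by surface CD44 and CD24 into cancer stem cells (CSCs, CD44+/CD24-/low) and the remaining cells (non-CSCs). SUM159PT was not sorted, was counted as CSCs by the study and has no non-CSC fraction. All groups are untreated triple negative lines, and the labels do not say whether the 3 libraries of a group came from separate cultures.

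The deposited values are FPKM, fragment numbers scaled for transcript length and library size. Counts are not given, the sequencing depth is therefore unknown, and the precision rests on the 3 libraries of a group. Between genes, levels are compared on this scale, which is per length. Summed over all genes, FPKM came to between 291276 and 366532 in the 12 sorted libraries. The SUM159PT libraries stood apart, with sums of 652082, 646697 and 634746 and with 8534 to 8670 genes above 1 FPKM, where the sorted libraries had 11249 to 11997. For this reason SUM159PT is described apart from the sorted fractions, and the comparisons of CSCs with non-CSCs do not use it. Correlations of log2(FPKM + 0.1) across genes were 0.987 to 0.993 for libraries of the same group and 0.840 to 0.983 for libraries of different groups.

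The sort was visible in the RNA of CD24, a surface glycoprotein. CD24 fell from 146.8, 137 and 134 FPKM in SUM149PT non-CSCs to 7.97, 7.64 and 7.61 in its CSCs, and from 166.5, 141 and 142 to 23.6, 22.5 and 23.9 in HCC1937. SUM159PT had 0.759, 0.682 and 0.745 FPKM of CD24. CD44, the hyaluronan receptor, was above 28 FPKM in every library and differed much less, between 61.4 and 67.0 in SUM149PT non-CSCs and between 82.9 and 86.8 in its CSCs. In HCC1937 CD44 was 95.1 to 102 in non-CSCs and 100.4 to 113 in CSCs, which overlap, and was not called (adjusted p = 0.314).

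NRF2, the product of NFE2L2, is a transcription factor that switches on antioxidant and detoxifying genes. In unstressed cells KEAP1 holds NRF2 for ubiquitination by a cullin ligase, and electrophiles or oxidants that modify KEAP1 let NRF2 build up, so that much of its control lies in the protein and not in its RNA. In the nucleus NRF2 pairs with small MAF proteins and binds antioxidant response elements, and in breast and other cancers a lasting activity of the pathway is known for resistance to drugs and oxidants.

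The core of the antioxidant response element is shown here because it is the sequence that NRF2 binds at its targets. The letters TGACNNNGC were searched on both strands in the RefSeq promoter windows (GRCh38.p14), which run from 250 bases before to 50 after a gene's start. TGANTCA, the overlapping motif of AP-1, was searched within the matched cores only and occurred in none of those printed here. The core was found in 5 of 11 windows of these genes (45.5%). It was found in 4687 of all 35116 windows (13.3%) and in 14 of 86 windows of other pathway genes (16.3%). By gene, it was found in 4 of 8 with an entry (50%), against 12 of 55 other pathway genes with an entry (21.8%). As these genes were chosen as an NRF2 pathway, their higher share is not a test. Capitals mark the core in 29 bases, written 5′ to 3′ on the strand given. The GCLM match lies 34 bases before the start, at chr1:93909446-93909474 (plus strand), and the GPX2 match lies 122 bases before it, at chr14:64942849-64942877 (plus strand). KEAP1 holds matches at chr19:10502784-10502812 (plus strand) and chr19:10502807-10502835 (minus strand). TXNRD1 has a match before each of its starts shown here, at chr12:104215670-104215698 (plus strand) and chr12:104286920-104286948 (minus strand).
GCLM: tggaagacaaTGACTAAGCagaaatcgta
GPX2: atccccaggaTGACTTAGCaaaaacaggt
KEAP1, nearer: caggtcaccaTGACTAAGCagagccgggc
KEAP1, farther: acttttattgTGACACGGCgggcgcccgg
TXNRD1, upstream start: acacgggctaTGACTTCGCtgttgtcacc
TXNRD1, downstream start: agagtcagaaTGACAAAGCagaaatccac
A further TXNRD1 match reaches up to the upstream start and is not printed. In GENCODE release 29 all 9 bases of the core lie in an untranslated exon part for GPX2, both KEAP1 matches and the TXNRD1 match at the downstream start. Only 1 of the 9 bases does for GCLM, and none for the printed TXNRD1 match at the upstream start. The windows of NFE2L2, NQO1, GCLC and SRXN1 do not hold these letters, which says nothing of sequence outside them. HMOX1 and SLC7A11 had no entry. The genes lie on 10 different chromosomes, and the GC content of their longest transcripts runs from 35.4% in SLC7A11 to 60.3% in KEAP1.

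Among the regulators, NFE2L2 stood at 71.3, 65.2 and 66.7 FPKM in the SUM149PT non-CSC libraries and at 98.3, 96.7 and 93.2 in the SUM149PT CSC libraries. In HCC1937 it read 23.3, 24.6 and 22.4 in non-CSCs and 25.97, 25.8 and 24.3 in CSCs. SUM159PT had 2.56, 2.68 and 3.44 FPKM. The SUM149PT fractions were separate, with the CSCs higher, those of HCC1937 overlapped, and every SUM159PT library was below all others. Group means (± SD, n = 3) fell in the order 96.1 ± 2.59 in SUM149PT CSCs, 67.7 ± 3.17 in SUM149PT non-CSCs, 25.3 ± 0.908 in HCC1937 CSCs, 23.4 ± 1.10 in HCC1937 non-CSCs and 2.90 ± 0.479 in SUM159PT. NFE2L2 lay above 97.7% of the genes detected in SUM149PT CSCs and above 65.2% of those in SUM159PT.

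KEAP1, the adaptor that marks NRF2 for degradation, ran the other way. Its FPKM was 11.6, 11.01 and 11.8 in SUM149PT non-CSCs and 5.404, 5.54 and 6.05 in SUM149PT CSCs. In HCC1937 it was 25.8, 28.0 and 24.4 in non-CSCs and 26.02, 24.9 and 25.2 in CSCs, and in SUM159PT 33.5, 32.1 and 32.8. SUM159PT was highest and SUM149PT CSCs lowest, and only the HCC1937 fractions overlapped among neighbours in this order.

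As NFE2L2 and KEAP1 encode partners, their levels were set against each other within each library. The ratio of NFE2L2 to KEAP1 FPKM was 5.92 ± 0.252 (SD, n = 3) in SUM149PT non-CSCs and 17.02 ± 1.44 in SUM149PT CSCs. It was 0.900 ± 0.0205 and 0.999 ± 0.0361 in the same fractions of HCC1937, and 0.0883 ± 0.0148 in SUM159PT. The ratio of RNA levels thus spanned 15.4 to 18.2 in SUM149PT CSCs and 0.0764 to 0.105 in SUM159PT, with HCC1937 in between. NFE2L2 (45.6% GC) and KEAP1 (60.3% GC) differ in GC content, which SUM159PT values follow. Removing the GC trend, a step chosen after seeing the data, moved the differences of SUM159PT from SUM149PT CSCs from -5.02 to -3.69 for NFE2L2 and from 2.51 to 1.87 for KEAP1, so the ratio in SUM159PT is lower on the deposited scale than after this step. Within SUM149PT, the same step moved the log2 fold change of CSCs from non-CSCs from -1.003 to -0.68 for KEAP1. For NFE2L2 it moved from 0.50 to 0.51. Protein was not measured in these files.

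Of the enzymes that mark NRF2 activity, NQO1, a quinone reductase, was most abundant in HCC1937. It read 33.7, 34.6 and 30.8 FPKM in SUM149PT non-CSCs and 25.2, 26.6 and 27.5 in SUM149PT CSCs. HCC1937 had 169, 170.3 and 153 in non-CSCs and 172, 152 and 150.6 in CSCs, and SUM159PT had 93.7, 96.3 and 90.2. The HCC1937 fractions overlapped, whereas SUM159PT lay below them and SUM149PT below both, with its CSCs lowest. NQO1 and NFE2L2 therefore took opposite places in the order of the sorted lines: the line with more NFE2L2 RNA had less NQO1 RNA.

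HMOX1, the inducible heme oxygenase, showed another order. Its FPKM was 141, 144 and 153 in SUM149PT non-CSCs and 289, 338.5 and 304 in SUM149PT CSCs. HCC1937 had 15.5, 14.7 and 12.3 in non-CSCs and 15.6, 16.5 and 16.8 in CSCs, while SUM159PT had 193, 203 and 185.7. All neighbours were separate, although the highest HCC1937 non-CSC library and the lowest CSC library were nearly level. The means were 310.7 ± 25.3 in SUM149PT CSCs, 194 ± 8.88 in SUM159PT and 146 ± 6.18 in SUM149PT non-CSCs. In HCC1937 they were 16.3 ± 0.628 in CSCs and 14.2 ± 1.65 in non-CSCs. The place of SUM159PT above SUM149PT non-CSCs depends on the scale. Rescaled to an equal sum, its log2 fold change from SUM149PT CSCs was -1.77. That of SUM149PT CSCs from non-CSCs was at most 1.365 among the alternatives.

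**Figure D1:**
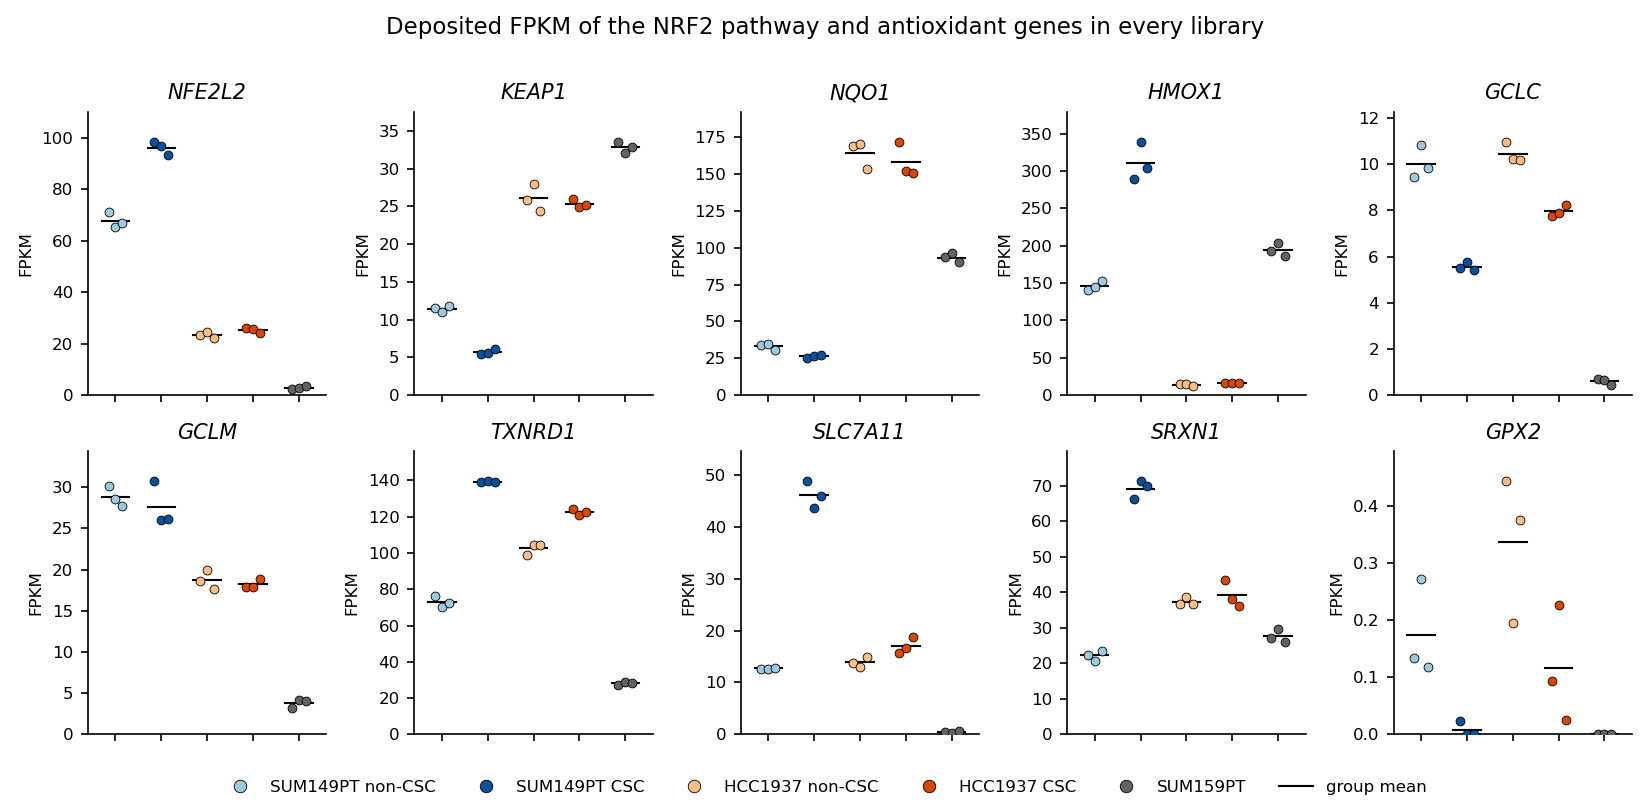
FPKM (linear axis from 0) of the 10 genes, with 1 point per library, 3 libraries for each of the 5 groups and a bar at the group mean. SUM149PT CSCs are highest for NFE2L2, HMOX1, TXNRD1, SLC7A11 and SRXN1, HCC1937 is highest for NQO1, and SUM159PT is lowest for NFE2L2, GCLC, GCLM, TXNRD1 and SLC7A11.

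Glutathione synthesis begins with cystine, which SLC7A11 carries into the cell. SLC7A11 read 12.6, 12.7 and 12.9 FPKM in SUM149PT non-CSCs and 48.7, 43.7 and 45.8 in SUM149PT CSCs. In HCC1937 it read 13.8, 13.1 and 14.95 in non-CSCs and 15.6, 16.7 and 18.8 in CSCs, and in SUM159PT 0.457, 0.346 and 0.563. The SUM149PT CSC libraries were far above the rest and the SUM159PT libraries far below, and no neighbours overlapped. SLC7A11 works as a dimer with SLC3A2, a partner chosen after its values were seen, and the ratio of SLC7A11 to SLC3A2 FPKM was 0.0668 ± 0.00275 in SUM149PT non-CSCs against 0.339 ± 0.0290 in its CSCs. The ratio was 0.0989 ± 0.0163 in HCC1937 non-CSCs, 0.145 ± 0.0205 in HCC1937 CSCs and, on the deposited scale, 0.00306 ± 0.000440 in SUM159PT. With the GC trend removed, the difference of SUM159PT from SUM149PT CSCs moved from -6.40 to -3.54 for SLC7A11.

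GCLC and GCLM are the catalytic and the modifier subunit of glutamate-cysteine ligase, which makes the first step of glutathione synthesis. GCLC read 9.43, 10.8 and 9.83 FPKM in SUM149PT non-CSCs and 5.49, 5.79 and 5.42 in its CSCs. HCC1937 had 10.96, 10.2 and 10.2 in non-CSCs and 7.74, 7.90 and 8.25 in CSCs, and SUM159PT had 0.688, 0.671 and 0.444. In both sorted lines every CSC library was below every non-CSC library, the 2 non-CSC groups overlapped, and SUM159PT was lowest. GCLM, by contrast, was 27.7 to 30.1 FPKM in SUM149PT non-CSCs and 26.02 to 30.7 in its CSCs, 17.6 to 19.9 and 17.8 to 18.8 in the same fractions of HCC1937, and 3.20 to 4.12 in SUM159PT. GCLM fractions overlapped in both lines, so the ratio of GCLM to GCLC was higher in CSCs, at 4.97 ± 0.561 against 2.88 ± 0.282 in SUM149PT and 2.29 ± 0.0281 against 1.79 ± 0.137 in HCC1937. In SUM159PT this ratio was 6.66 ± 2.30 on the deposited scale. With the GC trend removed, the differences of SUM159PT from SUM149PT CSCs moved from -2.84 to -0.12 for GCLM and from -3.04 to -1.43 for GCLC.

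TXNRD1, the cytosolic thioredoxin reductase, and SRXN1, which repairs overoxidized peroxiredoxins, belong to the thioredoxin branch. TXNRD1 read 76.2, 70.3 and 72.4 FPKM in SUM149PT non-CSCs and 139, 139.4 and 139.2 in its CSCs. HCC1937 had 98.7, 104.5 and 104.6 in non-CSCs and 124, 120.7 and 123 in CSCs, and SUM159PT had 27.2, 28.8 and 28.6. The order was SUM149PT CSCs, HCC1937 CSCs, HCC1937 non-CSCs, SUM149PT non-CSCs and SUM159PT, with no overlap between neighbours. TXN, its substrate thioredoxin, was likewise chosen after its values were seen. The ratio of TXNRD1 to TXN was 1.51 ± 0.238 in SUM149PT non-CSCs and 4.54 ± 0.138 in SUM149PT CSCs. It was 0.875 ± 0.130 in HCC1937 non-CSCs, 1.25 ± 0.162 in HCC1937 CSCs and, on the deposited scale, 0.635 ± 0.0479 in SUM159PT. With the GC trend removed, the difference of SUM159PT from SUM149PT CSCs moved from -2.30 to -0.80 for TXNRD1.

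SRXN1 read 22.3, 20.8 and 23.6 FPKM in SUM149PT non-CSCs and 66.3, 71.2 and 69.8 in its CSCs. In HCC1937 the libraries had 36.7, 38.8 and 36.8 in non-CSCs and 43.4, 38.1 and 36.1 in CSCs, and SUM159PT had 27.2, 29.6 and 26.06. On the deposited scale SUM149PT thus held both the highest and the lowest group, and the HCC1937 fractions overlapped. The lowest place depends on the scale. Among the alternatives, the log2 fold change of SUM159PT from SUM149PT CSCs went down to -2.41. That of SUM149PT CSCs from non-CSCs was at most 1.82. GPX2, a glutathione peroxidase mainly of gut epithelium, was hardly detected in any group. Its highest library had 0.443 FPKM (HCC1937 non-CSCs), it was listed at 0 in 2 SUM149PT CSC libraries and in all 3 SUM159PT libraries, and neighbouring groups overlapped except for HCC1937 CSCs over SUM149PT CSCs.

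**Figure D2:**
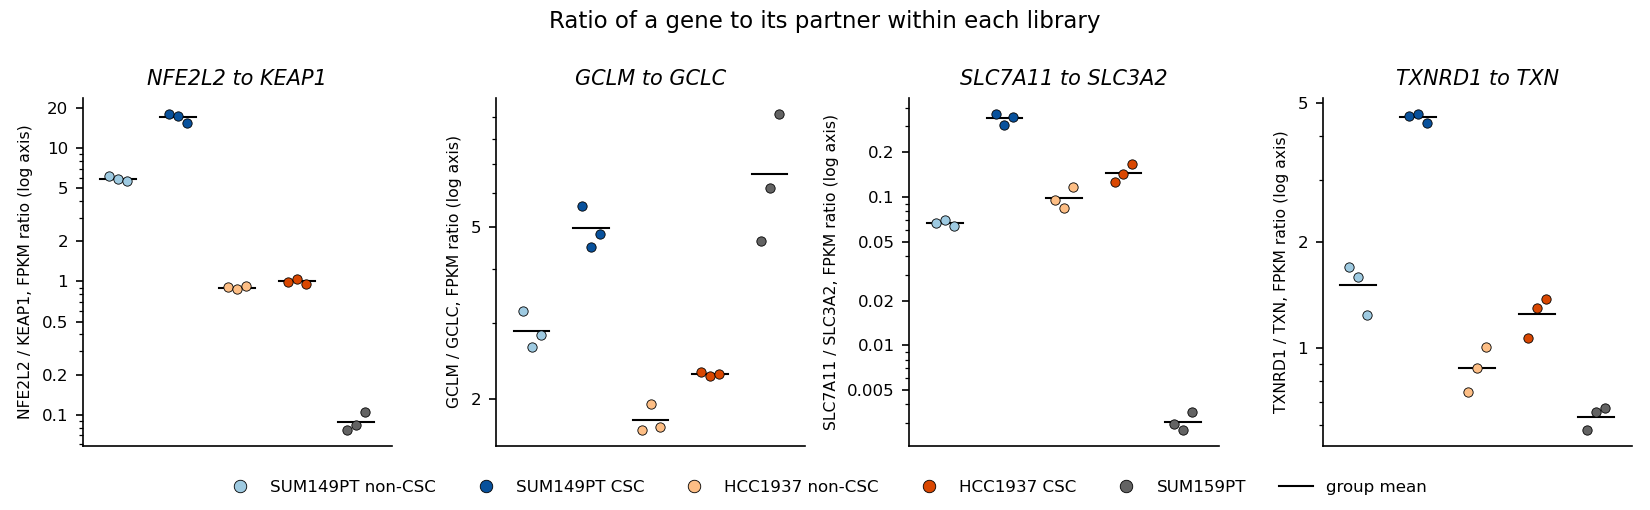
Ratio of the FPKM of a gene to that of its partner (log axis, deposited scale with no GC trend removed) in each library, with 3 points per group and a bar at the mean. The ratio of NFE2L2 to KEAP1 is 17.02 on average in SUM149PT CSCs and 0.0883 in SUM159PT, and the ratios of SLC7A11 to SLC3A2 and of TXNRD1 to TXN are highest in SUM149PT CSCs.

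Several of these genes share exonic bases with another gene in GENCODE release 29, and the strand of the libraries is not given. SLC7A11 shares 865 bases with the antisense SLC7A11-AS1, SRXN1 shares 2292 with AL121758.1 on its own strand and NQO1 shares 575 with the antisense AC092115.2. NFE2L2 shares 1054 bases with AC019080.1 on its own strand, 190 with the antisense AC079305.1 and 54 with AGPS, and GCLC shares 529 with AL033397.1 on its own strand. How far such genes enter the values of SLC7A11, SRXN1, NQO1, NFE2L2 and GCLC was not tested.

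The fractions of each line were compared to find which antioxidant genes differ in the sorted stem cell fraction. Differences are given as log2 fold changes of FPKM + 0.1, a scale that understates the change of genes at low levels. Calls rest on a p adjusted over all genes tested, which had to be 0.05 or less. In SUM149PT the CSCs had more RNA of the cystine carrier SLC7A11, of SRXN1, HMOX1 and TXNRD1, and of NFE2L2 itself, and less of KEAP1, GCLC and NQO1. Of 9 genes tested, 8 were called in SUM149PT, beside 74.8% of the 16037 genes tested in this comparison. Higher in CSCs were 5 genes (33.3% of all genes tested) and lower were 3 (41.5%). A share this close to that of all genes is not a result about the pathway, and each gene is therefore described by its size and direction. The median log2 fold change of the 9 genes was 0.50, against -0.11 over all genes tested, and the median absolute value 0.93 against 0.71.

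By size, SLC7A11 led with a log2 fold change of 1.85 (SE 0.0617, adjusted p = 4.98e-06), a mean level 3.62 times that of non-CSCs. SRXN1 followed with 1.63 (SE 0.0704, adjusted p = 1.09e-05), HMOX1 with 1.09 (SE 0.0796, adjusted p = 7.39e-05) and TXNRD1 with 0.93 (SE 0.0557, adjusted p = 3.41e-05). NFE2L2 rose by less, 0.50 (SE 0.0609, adjusted p = 0.000578), or 1.42 times. KEAP1 changed by -1.003 (SE 0.0673, adjusted p = 5.24e-05), a mean level 0.495 times that of non-CSCs, GCLC by -0.84 (SE 0.0729, adjusted p = 0.000147) and NQO1 by -0.32 (SE 0.0713, adjusted p = 0.00816). In each of these 8 genes all 3 CSC libraries lay on the same side of all 3 non-CSC libraries, for which an exact permutation test (two-sided) gives p = 0.1, the smallest that 3 against 3 libraries allow. GCLM differed by -0.06 (95% confidence interval -0.28 to 0.15, adjusted p = 0.533), and GPX2 was under the minimum level and was not tested. All 3 SUM149PT CSC libraries of GPX2 were below all non-CSC libraries (exact permutation p = 0.1), and it was called in the 6 alternatives that call 9 genes: no minimum, rescaling to an equal sum, the fit over all 15 libraries and leaving out any 1 of the CSC libraries. With stricter limits (adjusted p 0.0001 or less, log2 fold change 1 or more in size), 4 genes were called (SLC7A11, SRXN1, HMOX1 and KEAP1), beside 20.5% of all genes tested. KEAP1 moved to -0.68 with the GC trend removed and to -0.84 with the length trend removed, steps chosen after seeing the data. Both values are under the limit of 1 in size.

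Known targets of NRF2 were called in both directions in SUM149PT: HMOX1, TXNRD1, SLC7A11 and SRXN1 rose while NQO1 and GCLC fell. Quantile normalization moved the median of all genes from -0.11 to 0.10 and the share of higher genes among those called from 44.6% to 54.9%, and each of the 9 genes kept its direction under it. NQO1 lost its call when a trend on transcript length, chosen after seeing the data, was removed (log2 fold change -0.15, adjusted p = 0.0650). In bulk libraries such as these, fewer cells with a transcript and less RNA per cell cannot be told apart. The p-values measure the spread among these libraries, which may be technical.

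**Figure D3:**
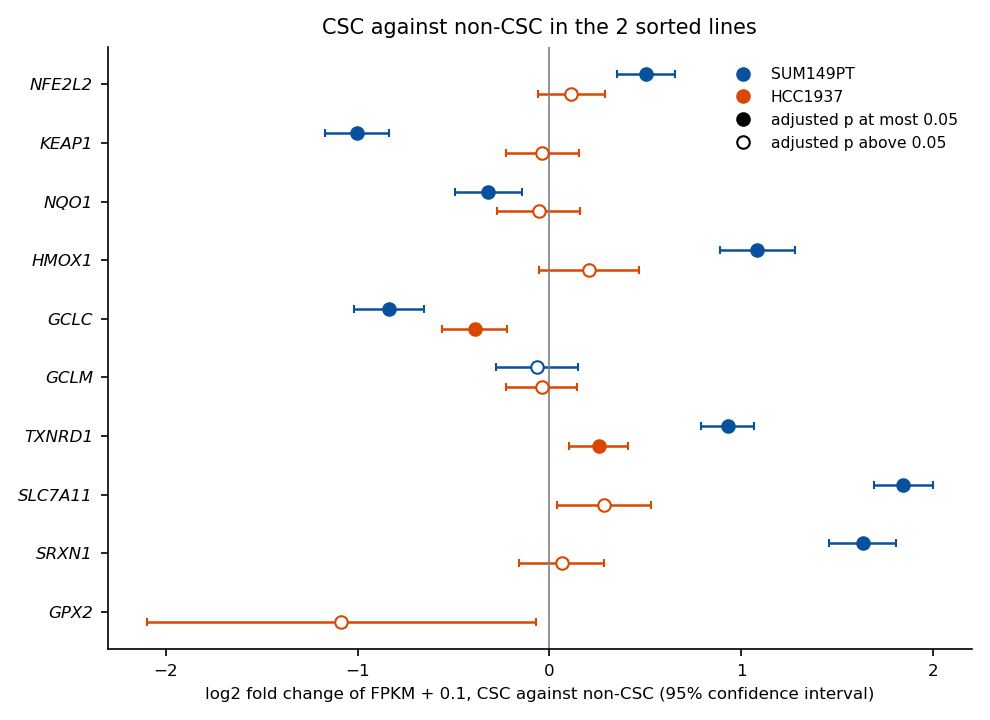
Log2 fold change of FPKM + 0.1 in CSCs against non-CSCs (horizontal axis, points with 95% confidence intervals, 3 against 3 libraries) for each gene in SUM149PT and HCC1937, filled where the adjusted p is 0.05 or less. SUM149PT values run from -1.003 for KEAP1 to 1.85 for SLC7A11, and GCLC and TXNRD1 are filled in both lines.

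Markers of cell state moved with the sort. In SUM149PT all 6 epithelial markers (EPCAM, CDH1, KRT5, KRT8, KRT14 and KRT18) fell and all 4 mesenchymal markers (VIM, ZEB1, FN1 and CDH2) rose, and the same counts held in HCC1937. Summed epithelial FPKM was 675 to 681.5 in SUM149PT non-CSC libraries and 87.0 to 92.6 in its CSCs, and 1399 to 1633 and 531.6 to 634 in HCC1937, with KRT18 or KRT8 most abundant. Summed mesenchymal FPKM was 447 to 508 and 2338 to 2485 in SUM149PT, and 140.5 to 210.9 and 923 to 1077 in HCC1937, with VIM or FN1 most abundant. In SUM159PT these sums were 277 to 292.5 and 1227 to 1257. Its epithelial sum comes mostly from KRT8 (130.4 to 134 FPKM) and KRT18 (144.6 to 158), while EPCAM and CDH1 were at most 0.0886 FPKM. Against SUM149PT CSCs 4 of the 6 epithelial markers were lower and 2 higher. The mesenchymal sum of SUM159PT comes mostly from VIM (1062 to 1091 FPKM). ZEB1 (0.117 to 0.268) and CDH2 (2.66 to 3.27) were below the CSCs of both sorted lines. Of the 4 mesenchymal markers, 2 were lower and 0 higher against SUM149PT CSCs, and 2 were lower and 1 higher against HCC1937 CSCs. The SUM159PT marker values are on the deposited scale and were not corrected for GC content, which SUM159PT differences follow. The part of all these markers in the differences of the antioxidant genes was not tested. Markers of immune, endothelial and blood cells (PTPRC, CD3E, LYZ, PECAM1, CDH5 and HBB) summed to at most 1.08 FPKM in any library, with CDH5, PECAM1 or HBB most abundant, CD3E at 0 in all 15 libraries and PTPRC at most 0.0986.

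In HCC1937 the same comparison gave small differences. CSCs had more TXNRD1 and less GCLC RNA, both in the direction seen in SUM149PT. These 2 of 10 genes were called in HCC1937, beside 25.6% of the 15582 genes tested, 1 higher (10.3%) and 1 lower (15.3%). TXNRD1 differed by 0.26 (SE 0.0624, adjusted p = 0.0323) and GCLC by -0.39 (SE 0.0675, adjusted p = 0.0102), mean levels 1.195 and 0.761 times those of non-CSCs. The median over the 10 genes was 0.01, against -0.03 over all genes tested. With limma, no gene of the table met the stricter limits (0 of 15582, or 0%), while 5886 had an unadjusted p under 0.05.

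SLC7A11 had a log2 fold change of 0.29 in HCC1937 (adjusted p = 0.0921) and HMOX1 of 0.21 (adjusted p = 0.214), each with all CSC libraries above all non-CSC libraries (exact permutation p = 0.1, the smallest possible). The values of NFE2L2, SRXN1, KEAP1, GCLM and NQO1 lay between -0.06 and 0.11, with overlapping fractions. GPX2 had -1.09 (adjusted p = 0.112) at levels under 0.5 FPKM, and was called in the fit over all 15 libraries (adjusted p = 0.0223) and without CSC replicate 2 (adjusted p = 0.0498). SLC7A11 was called with a trend in eBayes (adjusted p = 0.0461). TXNRD1 lost its call with a replicate block (0.26, adjusted p = 0.0907) and when any 1 of the 6 libraries was left out (0.23 to 0.27, adjusted p 0.0680 to 0.110), so the p moved while the fold change stayed about as large. GCLC lost its call when libraries were rescaled to an equal sum (log2 fold change -0.27, adjusted p = 0.119). Quantile normalization moved the share of higher genes among those called from 40.3% to 53.0%, and rescaling to an equal sum moved it to 54.3% and the median of all genes from -0.03 to 0.09.

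Whether the lines differ was tested directly, as the CSC effect in SUM149PT minus that in HCC1937 over the 12 sorted libraries. The effect was larger in SUM149PT for SRXN1, SLC7A11, HMOX1, TXNRD1 and NFE2L2, and lower for KEAP1 and GCLC. These 7 of 10 genes stand beside 61.1% of the 16451 genes tested, with 5 positive (28.1%) and 2 negative (33%). The differences were 1.57 for SRXN1 (SE 0.111, adjusted p = 1.41e-06), 1.56 for SLC7A11 (SE 0.114, adjusted p = 1.79e-06), 0.88 for HMOX1, 0.67 for TXNRD1 and 0.39 for NFE2L2. For KEAP1 the difference was -0.97 (SE 0.0961, adjusted p = 1.45e-05) and for GCLC -0.45 (SE 0.0927, adjusted p = 0.00201). NQO1 had -0.26 (adjusted p = 0.0610) and was called in 7 of 23 alternatives, so no difference between the lines is given for it. GCLM had -0.02 (95% confidence interval -0.27 to 0.22) and GPX2 -0.23 (-1.35 to 0.90). The median was 0.18 over the 10 genes and -0.08 over all genes tested, the latter moving to 0.06 with quantile normalization.

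The sorted lines were then set against each other, HCC1937 minus SUM149PT, in a fit over all 15 libraries where a call also needed a log2 fold change of 1 or more in size. In both fractions HCC1937 had more KEAP1 and NQO1 and less NFE2L2 and HMOX1, and in CSCs also less SLC7A11. Among CSCs 5 of 10 genes were called, beside 43% of the 16373 genes tested, 2 higher (25.6%) and 3 lower (17.3%). Among non-CSCs 4 were called, beside 42.1%, 2 higher (21.8%) and 2 lower (20.3%).

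HMOX1 differed most between these lines, by -4.24 in CSCs and -3.36 in non-CSCs (SE 0.0896 in each), levels 19.1 and 10.3 times higher in SUM149PT. NQO1 differed by 2.57 and 2.31, KEAP1 by 2.14 and 1.18, and NFE2L2 by -1.92 and -1.53. SLC7A11 differed by -1.43 in CSCs, whereas in non-CSCs it had 0.13 (adjusted p = 0.352). For TXNRD1 the values were -0.18 in CSCs and 0.49 in non-CSCs, and for SRXN1 -0.82 and 0.75, all under the limit of 1 on the fold change. Both genes were higher in SUM149PT CSCs than in HCC1937 CSCs and lower in SUM149PT non-CSCs than in HCC1937 non-CSCs, with separate libraries in each case. GCLM had -0.60 and -0.62, GCLC 0.51 and 0.06, and GPX2 0.89 and 0.67. Median values were -0.39 in CSCs and 0.31 in non-CSCs over the 10 genes, and 0.22 and 0.09 over all genes.

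Upper quartile scaling moved the median of all genes from 0.22 to 0.00 in CSCs and from 0.09 to -0.12 in non-CSCs, and the share of higher genes among those called from 59.7% to 49.2% and from 51.8% to 41.0%. Under it KEAP1 in non-CSCs fell under the limit (0.94) and SRXN1 in CSCs passed it (-1.06). SRXN1 also passed it with quantile normalization (-1.05) and with the GC trend (-1.11) or the length trend (-1.14) removed, steps chosen after seeing the data. GPX2 in CSCs passed it with a pseudocount of 0.01 (2.67), rescaled to an equal sum (1.65) and without HCC1937 CSC replicate 3 (1.23).

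Unsorted SUM159PT was compared with the CSCs of both sorted lines. These comparisons share the SUM159PT libraries, and each also shares its CSC libraries with those above, so their values are given side by side only. On the deposited scale SUM159PT had less NFE2L2, GCLC, GCLM, TXNRD1 and SLC7A11 RNA than the CSCs of either line, of which the calls of GCLM and TXNRD1 did not hold with the GC trend removed. Against SUM149PT CSCs it also had more KEAP1 and NQO1 and less SRXN1, and against HCC1937 CSCs it had more HMOX1. Against SUM149PT CSCs 8 of 10 genes were called, beside 61.4% of the 16373 genes tested, 2 higher (19.1%) and 6 lower (42.3%). Against HCC1937 CSCs 6 were called, beside 64.1%, 1 higher (17.6%) and 5 lower (46.5%). The medians over the 10 genes were -1.81 and -1.56, against -0.60 and -0.85 over all genes tested.

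SLC7A11 had the largest difference of the 10 genes, -6.40 (SE 0.123) against SUM149PT CSCs and -4.96 against HCC1937 CSCs. It lost this rank when a GC or a length trend was removed, to NFE2L2 against SUM149PT CSCs (-3.69 and -4.53, with SLC7A11 at -3.54 and -4.12) and to HMOX1 against HCC1937 CSCs (3.35 and 3.82, with SLC7A11 at -2.11 and -2.83). In the same order of comparisons, NFE2L2 had -5.02 and -3.10, GCLC -3.04 and -3.54, GCLM -2.84 and -2.24, and TXNRD1 -2.30 and -2.12. NFE2L2 was second in size against SUM149PT CSCs, whereas against HCC1937 CSCs HMOX1 and GCLC were larger. KEAP1 had 2.51 and 0.37, NQO1 1.82 and -0.76, HMOX1 -0.68 and 3.57, and SRXN1 -1.32 and -0.50. SUM159PT thus combined the lowest NFE2L2 and SLC7A11 RNA of all groups with HMOX1 and NQO1 at 194 and 93.4 FPKM. GPX2 was at 0 in SUM159PT, so no fold is given. Against HCC1937 CSCs it was called as lower in 5 alternatives.

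**Figure D4:**
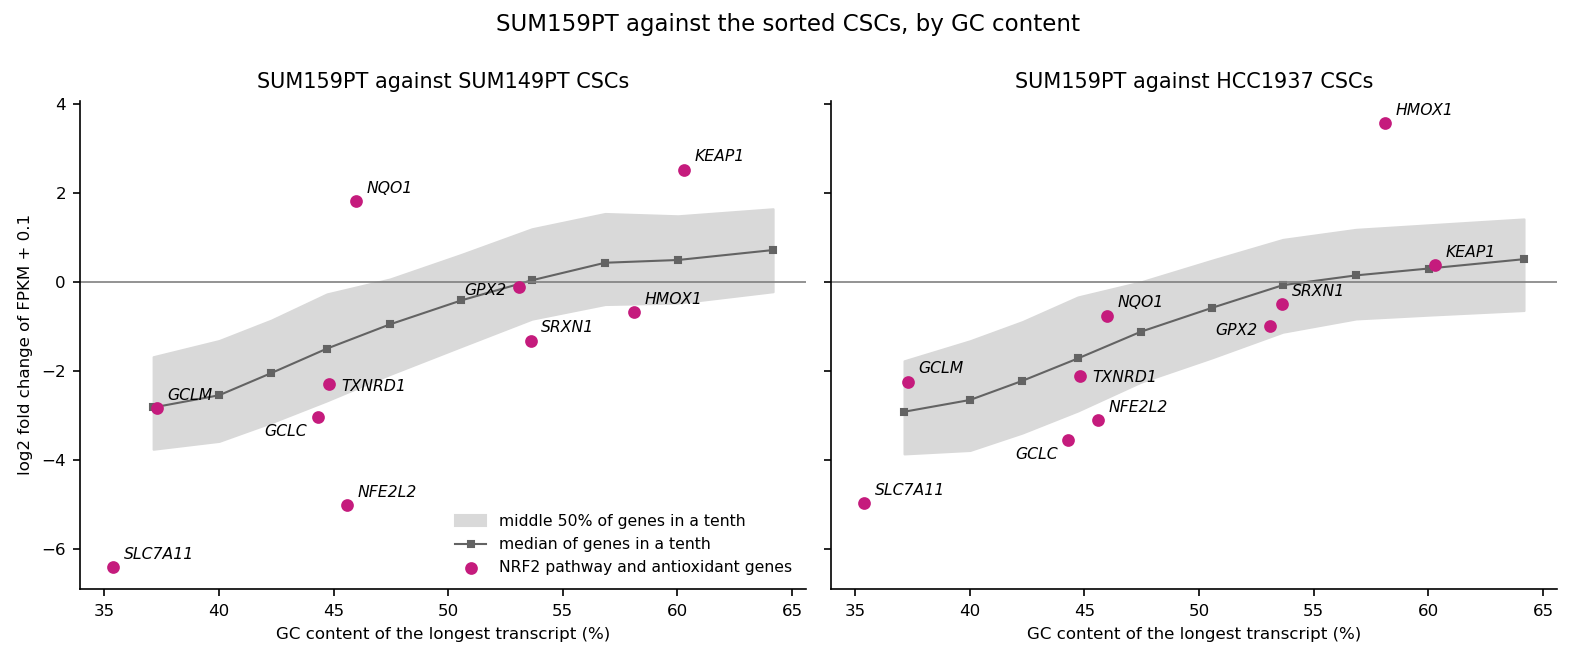
Log2 fold change of FPKM + 0.1 in SUM159PT against the CSCs of SUM149PT and of HCC1937, by GC content of the longest transcript (%), with the 10 genes as named points, the line joining the medians of all genes in 10 equal groups by GC content and the band their middle 50%. The medians run from -2.82 to 0.71 against SUM149PT CSCs and from -2.92 to 0.51 against HCC1937 CSCs, and SLC7A11, NFE2L2 and GCLC lie below the band in both.

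Differences of SUM159PT followed GC content across genes, with Spearman's rho of 0.593 against SUM149PT CSCs and 0.512 against HCC1937 CSCs over 14188 genes with a known transcript, where genes are not independent replicates. The 10% of genes with the lowest GC content had medians of -2.82 and -2.92, and the 10% with the highest had 0.71 and 0.51. SLC7A11 and GCLM are in the lowest group, and NFE2L2, GCLC, TXNRD1 and NQO1 are in the fourth, whose medians were -1.498 and -1.72. With the GC trend removed, a step chosen after seeing the data, GCLM differed by -0.12 (adjusted p = 0.224) against SUM149PT CSCs and by 0.54 against HCC1937 CSCs, so its lower level rests on the scale used. TXNRD1 then fell under the limit in both (-0.80 and -0.45), and NQO1 turned to 0.67 against HCC1937 CSCs. SLC7A11 still differed by -3.54 and -2.11, NFE2L2 by -3.69 and -1.60 and GCLC by -1.43 and -1.78.

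Other scalings also moved SUM159PT as a whole. Quantile normalization shifted the medians of all genes from -0.60 to 0.06 and from -0.85 to 0.02, and rescaling to an equal sum shifted them to -1.44 and -1.64. The share of higher genes among those called went from 31.1% to 50.2% and 11% against SUM149PT CSCs, and from 27.5% to 49.0% and 12.9% against HCC1937 CSCs. Upper quartile scaling gave medians of -0.41 in both and shares of 37.5% and 38.7%. After rescaling, KEAP1 turned to -0.63 against HCC1937 CSCs, and against SUM149PT CSCs NQO1 fell under the limit (0.73) while HMOX1 passed it (-1.77). NQO1 (-1.76) and SRXN1 (-1.51) then passed it against HCC1937 CSCs. Quantile normalization also took HMOX1 past it against SUM149PT CSCs (-1.38) and NQO1 against HCC1937 CSCs (-1.32). HMOX1 passed it against SUM149PT CSCs with the GC trend removed (-1.22). With the length trend removed, KEAP1 passed it against HCC1937 CSCs (1.19), and SRXN1 against SUM149PT CSCs (-0.93) and GCLM (-0.72) and TXNRD1 (-0.74) against HCC1937 CSCs fell under it. NFE2L2, SLC7A11 and GCLC were lower in SUM159PT, and HMOX1 was higher than in HCC1937 CSCs, under each of these settings.

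Around these genes, 68 others of the pathway were read in 8 lists. In SUM149PT 51 of 64 tested were called, 23 higher and 28 lower, with a median of -0.09 (all genes, -0.11), and in HCC1937 25 of 66, 9 higher and 16 lower, with a median of -0.10 (all genes, -0.03). Of all genes tested, 74.8% were called in SUM149PT (33.3% higher, 41.5% lower) and 25.6% in HCC1937 (10.3% higher, 15.3% lower). Of 66 tested, 41 differed between the lines in their CSC effect, 21 positive and 20 negative, beside 61.1% of all genes (28.1% positive, 33% negative). In SUM149PT and in the difference between the lines, shares this close to those of all genes are not a result about the pathway. In HCC1937 the share called was above that of all genes in the main fit, which did not hold under every alternative. With a replicate block 13 of 66 were called, beside 3066 of all 15582 genes. Without HCC1937 non-CSC replicate 1, 11 were called, beside 2709 of all 15585 genes. Whether the pathway differs from other genes was not tested. SUM159PT is given by counts only: against SUM149PT CSCs 28 of 66 were higher (all genes, 19.1%) and 17 lower (42.3%), with a median of 0.84 (all genes, -0.60). Against HCC1937 CSCs 23 were higher (17.6%) and 16 lower (46.5%), with a median of 0.39 (all genes, -0.85). These values were not corrected for GC content, which SUM159PT differences follow, and a difference from the 10 genes was not tested.

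In the control of NRF2 itself, 7 of 9 genes were called in SUM149PT (all genes, 74.8%), 4 higher and 3 lower, and 2 of 9 in HCC1937 (all genes, 25.6%). Of the small MAF partners, MAFK rose by 0.75 (SE 0.0892) in SUM149PT CSCs while MAFG changed by -0.55 (SE 0.0630), and the related factor NFE2L3 changed by -0.60 (SE 0.0852). Of 12 glutathione genes 9 were called in SUM149PT (all genes, 74.8%), 2 higher (33.3%) and 7 lower (41.5%), and of 13 in HCC1937, 2 were higher (10.3%) and 3 lower (15.3%). The glutathione transferase GSTM3 stood at 4.91, 4.18 and 4.42 FPKM in SUM149PT non-CSCs and at 0.228, 0.336 and 0.252 in its CSCs, a change of -3.64. In HCC1937 CSCs GSTM3 rose by 0.58, a call kept in 13 of 18 alternatives. The microsomal transferase MGST1 changed by -2.57 in SUM149PT, and the conjugate exporter ABCC2 rose in both lines, by 1.11 and 0.94. ABCC2 was at low levels, 0.604 to 1.98 FPKM in the sorted libraries. It kept its call in all 18 alternatives of each line, with lowest values of 0.62 in SUM149PT and 0.57 in HCC1937.

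Of 9 thioredoxin and peroxiredoxin genes tested, 4 rose (all genes, 33.3%) and 4 fell (41.5%) in SUM149PT CSCs and 0 (all genes, 25.6%) were called in HCC1937 by limma, where all 9 values lay between -0.26 and 0.18 and none had an unadjusted p under 0.05. The mitochondrial reductase TXNRD2 rose by 1.62 (SE 0.121), beside TXNRD1, while the peroxiredoxins PRDX1 and PRDX5 changed by -1.09 and -0.77. Of 5 genes read for the supply of NADPH, 1 rose (all genes, 33.3%) and 1 fell (41.5%) in SUM149PT: TKT changed by 0.70 and IDH1, the cytosolic isocitrate dehydrogenase, by -2.45 (SE 0.0894). In HCC1937 2 of these 5 fell (all genes, 15.3%), among them the malic enzyme ME1 by -0.52 (SE 0.0719, adjusted p = 0.00463). ME1 lost this call when libraries were rescaled to an equal sum (adjusted p = 0.0616).

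The detoxifying oxidoreductases, the group of NQO1, had 8 of 12 lower (all genes, 41.5%) and 1 higher (33.3%) in SUM149PT CSCs, beside 74.8% of all genes called in either direction. AKR1B10 changed by -2.18 at levels of at most 1.122 FPKM, and the epoxide hydrolase EPHX1 by -1.58 (SE 0.0603). In HCC1937 4 of 13 were higher (all genes, 10.3%) and 3 lower (15.3%), and AKR1C1 rose from 18.7, 23.0 and 19.1 FPKM to 69.6, 54.0 and 58.5, a change of 1.58 (SE 0.134), against -0.55 in SUM149PT. AKR1C1, AKR1B10, PRDX1 and FTH1 have close relatives or pseudogenes in the genome, and how reads were shared among them is not known.

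Of 5 heme and iron genes tested, 3 rose (all genes, 33.3%) and 1 fell (41.5%) in SUM149PT. FTH1, the ferritin heavy chain, changed by -1.29 (SE 0.0703) in SUM149PT and by 0.41 in HCC1937, where it kept its call in 12 of 18 alternatives. FTL, the light chain, rose by 0.27 in SUM149PT and kept its call in 12 of 18 alternatives, losing it with a replicate block (0.27) and without 5 of the 6 libraries in turn (0.19 to 0.29). The biliverdin reductase BLVRB changed by -0.86 in HCC1937 and kept its call in 16 of 18 alternatives. HMOX2 and TXNIP, chosen after their values were seen, were listed at 0 in all 15 libraries, which may come from the annotation used for the table and is not read as absence. Of 4 genes against superoxide and peroxide, SOD3 rose by 2.49 in SUM149PT, where it reached at most 1.09 FPKM, and 3 fell (all genes, 41.5%), among them SOD2 by -0.86 and SOD1 by -0.33. SOD1 lost its call when a GC trend (-0.17) or a length trend (-0.0789) was removed, with a smaller fold change, and SOD2 rose by 0.61 in HCC1937.

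ATF4, a factor that answers amino acid shortage and is also known to drive SLC7A11, was read with 7 other targets as an 8 gene list that leaves SLC7A11 out. All 8 were called in SUM149PT (all genes, 74.8%), 7 higher (33.3%) and 1 lower (41.5%), with a median of 0.78 (all genes, -0.11). In HCC1937 5 were called (all genes, 25.6%), all lower (15.3%), with a median of -0.26 (all genes, -0.03). Of the 3 HCC1937 calls followed through the alternatives, TRIB3 kept its call in 8 of 18, ASNS in 11 and CHAC1 in 13. ASNS, asparagine synthetase, read 23.7, 22.6 and 24.5 FPKM in SUM149PT non-CSCs and 94.5, 94.1 and 94.3 in its CSCs, a change of 2.00 (SE 0.0561), against -0.34 in HCC1937. TRIB3 rose by 1.27 in SUM149PT, and CHAC1, which degrades glutathione, changed by -1.28. In each of the 8 the CSC effect differed between the lines, beside 61.1% of all genes tested. This list was chosen with earlier results of these data known, and a part of ATF4 in the SLC7A11 difference was not tested.

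**Figure D5:**
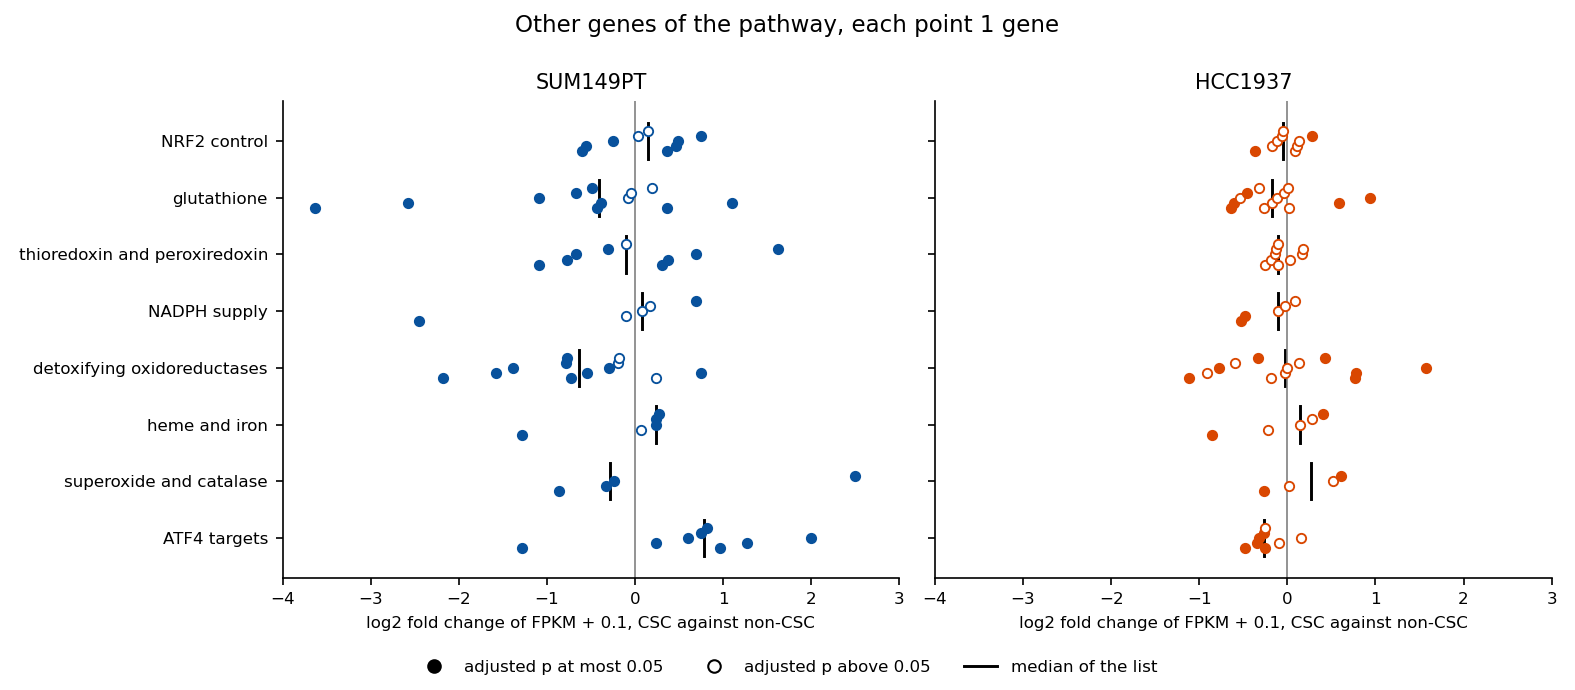
Log2 fold change of FPKM + 0.1 in CSCs against non-CSCs for the other pathway genes, with 1 point per gene, filled where the adjusted p is 0.05 or less, and a bar at the median of each list, in SUM149PT and in HCC1937. In SUM149PT the detoxifying oxidoreductases have a median of -0.64 and the ATF4 targets of 0.78, and in HCC1937 the ATF4 targets have a median of -0.26.

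The genes whose log2(FPKM + 0.1) followed NFE2L2 most closely over the 15 libraries, among 12164 genes averaging 1 FPKM or more, were TACC1, FAM210A, PPP2CA, LMAN1 and ADNP2 (Pearson's r 0.998 to 0.996). For NQO1 they were MCM3, TYMS, UNG, MRPS7 and MYBL2 (r 0.997 to 0.996). The libraries fall into 5 groups, so these values describe likeness of group levels.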

How the data were processed

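The authors deposited FPKM per gene symbol for 15 libraries of oligo(dT) selected mRNA. The submitters' processing notes name Bowtie2 and GRCh38, and the quantification tool and any scaling between libraries are not given in the sources used here. FPKM was analysed as log2(FPKM + 0.1) over genes averaging 0.1 FPKM or more in the fitted libraries, with limma 3.58.1 (lmFit and eBayes) in R 4.3.3 and Benjamini-Hochberg adjustment over all genes tested. CSCs were fitted against non-CSCs in the 6 libraries of each line, the difference between lines as an interaction over 12 libraries, and other contrasts over all 15. Single values were also compared by exact permutation tests. Named were all 10 genes and, from each pathway list, up to 3 genes with the largest absolute log2 fold change in either line among those called with no overlap between fractions. Members and lists were chosen with earlier results of these data known, and 1 gene planned for the pathway lists and 1 planned marker were left out. Alternatives changed the pseudocount and the expression minimum, scaled libraries by upper quartile, quantiles or to an equal sum, or used eBayes with a trend, a replicate block, a fit over all libraries, stricter limits, each library left out in turn, and, chosen after seeing the data, removal of GC or length trends. The fit was tested on simulated data. Transcript GC content, length and overlaps came from GENCODE release 29 (longest transcript per symbol), and promoters from RefSeq (GRCh38.p14). Python 3.11.15 and matplotlib 3.10.9 were used. No column was left out.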

Additional observations from a re-analysis of the deposited data

Results flagged for a closer look

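The effect of the CSC fraction differed between SUM149PT and HCC1937 for the following genes, by the interaction test of limma over the 12 sorted libraries (p 0.05 or less after adjustment over all genes tested). Each value is the log2 fold change in SUM149PT minus that in HCC1937, and in the table as a whole 61.1% of genes passed this test. Among the NRF2 pathway and antioxidant genes the difference was 0.39 for NFE2L2, -0.97 for KEAP1, 0.88 for HMOX1, -0.45 for GCLC, 0.67 for TXNRD1, 1.56 for SLC7A11 and 1.57 for SRXN1. Among genes that control NRF2 it was -0.64 for MAFG, 0.86 for MAFK and -0.43 for NFE2L3. Glutathione genes had -4.22 for GSTM3 and -2.45 for MGST1. In the thioredoxin and peroxiredoxin list it was 1.60 for TXNRD2, -0.98 for PRDX1 and -0.58 for PRDX5. Genes of NADPH supply had 0.80 for TKT, -2.42 for IDH1 and 0.42 for ME1, of which ME1 kept its call in 22 of 23 alternatives. Detoxifying oxidoreductases had -1.28 for AKR1B10, -2.13 for AKR1C1 and -1.25 for EPHX1, of which AKR1B10 kept its call in 7 of 22 alternatives. Heme and iron genes had 0.93 for BLVRB and -1.70 for FTH1, and SOD2 and SOD3 had -1.47 and 1.97. SOD3 kept its call in 21 of 22 alternatives, with a lowest value of 0.46. Among ATF4 targets the difference was 2.34 for ASNS, -0.81 for CHAC1 and 1.59 for TRIB3.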

How the results depend on the processing

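In SUM149PT the 8 called genes kept their direction under all 18 alternatives and their call in all but the length trend for NQO1. Stricter limits were 0.0001 on the adjusted p and 1 on the absolute log2 fold change. Under them 4 of the 8 genes and 12 other pathway genes were called in SUM149PT. For HCC1937 the counts were 0 and 0, beside 0 of all 15582 genes tested. In HCC1937 1 gene was called after rescaling to an equal sum, and leaving out 1 library gave 1 to 2 genes and 11 to 21 other pathway genes. Both fractions of a line carry the same replicate numbers, and whether a number marks a shared culture or sort is not stated. Correlations of same-numbered residuals were 0.0880, 0.0226 and 0.0800 in SUM149PT and -0.0777, -0.0352 and -0.00886 in HCC1937. Between different numbers, the SUM149PT values lay at -0.115 to 0.0374 and the HCC1937 values at -0.0477 to 0.0817. With 3 libraries per fraction, such values cannot show whether the fractions were paired. Fitted with a replicate block, 1 gene (GCLC) and 13 other pathway genes were called in HCC1937 (3066 of all 15582 genes). In SUM149PT these counts were 8 and 44 (11492 of 16037).

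Values that turned in direction were mostly near 0 and not called, and the cause was not tested. In HCC1937 KEAP1 had 0.0224 with quantile normalization, 0.0895 rescaled to an equal sum, 0.0864 without the GC trend and 0.0329 without the length trend, NQO1 had 0.04495, 0.0696 and (length) 0.0141, and GCLM had 0.0393 and 0.0871. Leaving out 1 library gave -0.0830 to 0.0168 for KEAP1, -0.0801 to 0.00810 for GCLM and -0.0111 to 0.12 for SRXN1. In the difference between lines GCLM had 0.0245 without the length trend and -0.10 to 0.0172 leaving out 1 library, and GPX2 had 0.0430 with a pseudocount of 1 and -0.56 to 0.13 leaving out 1 library. In HCC1937 minus SUM149PT non-CSCs GCLC had -0.17 (upper quartile), -0.11 (quantile), -0.10 (equal sum), -0.0608 (GC) and -0.0572 (length), and SLC7A11 had -0.11, -0.0588 and -0.0357 under these 3 scalings. In SUM159PT minus HCC1937 CSCs KEAP1 had -0.63 rescaled to an equal sum, NQO1 0.67 (GC) and 0.04955 (length), GCLM 0.54 (GC), and SRXN1 0.04475 (upper quartile) and 0.21 (length). The depth of the libraries is unknown, so no limit of detection can be given for GPX2 and other genes near 0.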

Other observations

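Some genes of the pathway lists separated the lines more than the fractions, and are named here as chosen after their values were seen. GSTP1, a glutathione transferase often silenced in carcinomas, stood at 173 to 275 FPKM in the 6 SUM149PT libraries and at 1085 to 1275 in SUM159PT, but at 0.275 to 1.11 in the 6 HCC1937 libraries. GPX3, a secreted glutathione peroxidase, showed the reverse, with 29.5 to 38.4 FPKM in HCC1937 and at most 0.0729 in any library of the other lines.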
